A study of Caenorhabditis elegans with 66 samples.

Results

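The inducible heat shock genes of *Caenorhabditis elegans* examined here were 9 genes taken from a fixed list of stress-inducible chaperones, out of 46740 genes in each count table. They were 6 small heat shock genes (*hsp-16.1*, *hsp-16.11*, *hsp-16.2*, *hsp-16.41*, *hsp-16.48* and *hsp-16.49*) and 3 HSP70 genes (*hsp-70*, *F44E5.4* and *F44E5.5*), and all 9 passed the filter on low counts in both tables. Whole animals were grown at 20 °C on HB101 bacteria, with no heat shock named, and the sources used here do not give their age at RNA collection. PolyA-selected RNA was sequenced from 3 libraries of wild type (strain SX1316) and 3 of *rpb-9* (*mj261*, strain SX1902). The *mj261* allele puts a premature stop codon into *rpb-9*, which encodes a subunit of RNA polymerase II. Ribo-Zero RNA, depleted of ribosomal RNA, was sequenced from 3 libraries of wild type (SX1316) and 3 of *prg-1* (*n4357*, strain SX1888). The *prg-1* animals lack the Piwi protein that binds piRNAs. The count columns name strains only, and genotypes were matched to them by elimination. All genotypes carried the piRNA sensor, a germline GFP transgene that piRNAs silence. Nothing in the labels says whether libraries of 1 genotype came from separate cultures, so the p-values measure the spread between these libraries only.

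In animals, heat and other proteotoxic stress release the transcription factor HSF-1 from chaperones that hold it back, and it then binds heat shock elements, which are runs of alternating GAA and TTC units. Its targets encode chaperones: HSP-16 proteins are small heat shock proteins that hold unfolded proteins in solution, and HSP70 proteins refold them with ATP. In *C. elegans* the *hsp-16* genes are generally described as nearly silent without stress, and they serve as stress reporters. They stand in divergent pairs that share a promoter.

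Sequence decides how far the reads can tell these genes apart. On WBcel235, the assembly also called ce11, *hsp-16.1* (V:9087293-9087782, minus strand) and *hsp-16.48* (V:9088131-9088617, plus strand) form 1 divergent pair. Next to them, *hsp-16.49* (V:9089280-9089766, minus strand) and *hsp-16.11* (V:9090077-9090604, plus strand) form an inverted copy of it. A separate pair holds *hsp-16.2* (V:1804334-1804971, minus strand) and *hsp-16.41* (V:1805233-1805875, plus strand). *F44E5.4* (II:11757106-11759311, minus strand) and *F44E5.5* (II:11759681-11761852, plus strand) are divergent too, and *hsp-70* lies alone. Each *hsp-16* gene and each *F44E5* gene has 2 exons and *hsp-70* has 3, and no exon of another annotated gene overlapped theirs. The exons of *hsp-16.1* and *hsp-16.11* were identical over 438 aligned bases, and those of *hsp-16.48* and *hsp-16.49* over 432. *F44E5.4* and *F44E5.5* differed at 2 of 2063 aligned bases. By contrast, *hsp-16.2* was 90.6% identical to *hsp-16.1*, and *hsp-16.41* was 92.1% identical to *hsp-16.48*.

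The first 60 bases of the second exon show these relations, with capitals where a base differs from *hsp-16.1*; *hsp-16.11* reads as *hsp-16.1* and *hsp-16.49* as *hsp-16.48*.
hsp-16.1 (V:9087545-9087604, minus strand): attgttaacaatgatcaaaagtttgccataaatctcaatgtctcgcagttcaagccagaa
hsp-16.2 (V:1804693-1804752, minus strand): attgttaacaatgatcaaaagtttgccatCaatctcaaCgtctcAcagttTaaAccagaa
hsp-16.41 (V:1805467-1805526, plus strand): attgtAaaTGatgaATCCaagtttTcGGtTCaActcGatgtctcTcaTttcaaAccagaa
hsp-16.48 (V:9088324-9088383, plus strand): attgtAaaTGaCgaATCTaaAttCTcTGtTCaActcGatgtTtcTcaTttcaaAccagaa
Over this stretch *hsp-16.2* differed from *hsp-16.1* at 5 bases, *hsp-16.41* at 17 and *hsp-16.48* at 21.

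Windows of 50 bases, the length of the reads, were cut from the exons and aligned back to the genome with up to 2 mismatches, as the authors allowed. None of the 340 windows of *hsp-16.1*, 378 of *hsp-16.11*, 334 of *hsp-16.48*, 334 of *hsp-16.49*, 1999 of *F44E5.4* or 1965 of *F44E5.5* had a single locus. The share with a single locus was 87.9% of 494 windows in *hsp-16.2*, 87.5% of 487 in *hsp-16.41* and 99.8% of 1866 in *hsp-70*. With 0 mismatches, it was every window of *hsp-16.2*, *hsp-16.41* and *hsp-70*, but 2.1% in *F44E5.4* and 1.8% in *F44E5.5*. The authors split each read over all its loci, so a copy's count is close to its pair's total divided equally. In the polyA libraries *hsp-16.48* and *hsp-16.49* had the same count in every library, for example 1962.5 each in *rpb-9* replicate 1. The counts of *hsp-16.2* and *hsp-16.41* were whole numbers in all 12 libraries. The members therefore give 6 separate measurements: 3 copy pairs, *hsp-16.2*, *hsp-16.41* and *hsp-70*.

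**Figure D1:**
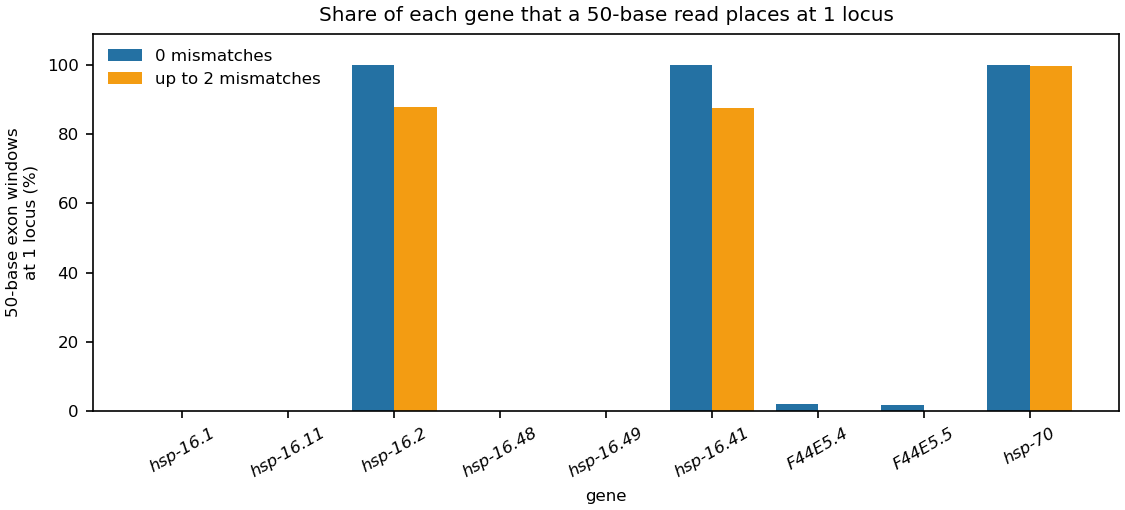
Share of the 50-base exon windows of each gene, in percent, that aligned to 1 locus with 0 mismatches (blue) or up to 2 (orange). Bars of 0 for *hsp-16.1*, *hsp-16.11*, *hsp-16.48* and *hsp-16.49* mark exact copies, while *hsp-16.2*, *hsp-16.41* and *hsp-70* stand at 87.5% or more.

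The DNA between the divergent genes, taken between the outermost bases that Ensembl and RefSeq annotate, was searched on both strands for GAANNTTC and TTCNNGAA (a pair of units), for runs of 3 units, in which these pairs overlap by a shared unit, and for TATAAA. The promoters are shown because they carry the sites through which HSF-1 is known to act, with capitals marking every base inside a pair of units, plus strand.
hsp-16.2 and hsp-16.41 (V:1804972-1805177): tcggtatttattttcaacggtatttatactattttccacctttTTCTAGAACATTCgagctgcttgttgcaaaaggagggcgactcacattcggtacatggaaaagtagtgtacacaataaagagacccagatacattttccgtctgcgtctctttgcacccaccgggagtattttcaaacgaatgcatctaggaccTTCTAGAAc
hsp-16.1 and hsp-16.48 (V:9087851-9088047, part of V:9087783-9088130): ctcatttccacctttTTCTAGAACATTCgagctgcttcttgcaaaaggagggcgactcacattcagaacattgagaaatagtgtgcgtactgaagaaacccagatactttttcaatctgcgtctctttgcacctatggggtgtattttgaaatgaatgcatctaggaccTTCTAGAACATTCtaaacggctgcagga
F44E5.4 and F44E5.5 (II:11759344-11759619, part of II:11759312-11759661): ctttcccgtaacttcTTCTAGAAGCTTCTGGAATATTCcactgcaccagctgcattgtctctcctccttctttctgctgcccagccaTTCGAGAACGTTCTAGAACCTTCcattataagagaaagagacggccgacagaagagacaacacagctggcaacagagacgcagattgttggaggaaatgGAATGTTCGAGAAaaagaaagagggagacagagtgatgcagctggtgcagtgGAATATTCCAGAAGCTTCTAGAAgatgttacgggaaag
The 206 bases between *hsp-16.2* and *hsp-16.41* held 1 run of 3 units and 3 pairs. The 348 bases between *hsp-16.1* and *hsp-16.48* held 2 runs and 4 pairs, and their inverted copy, identical over all 310 bases between *hsp-16.49* and *hsp-16.11*, held the same number. Between *F44E5.4* and *F44E5.5* there were 10 overlapping runs and 14 pairs in 350 bases. The 250 bases upstream of *hsp-70* held 1 run and 3 pairs. Of 19984 windows upstream of protein-coding genes, 1.28% held a run of 3 units in 206 bases, 1.63% in 250 bases and 2.25% in 350 bases. A pair was common, in 22.5% at 206 bases and 36.3% at 350 bases. A TATAAA motif stood in all 4 intergenic stretches. It stood in 30.9% of the windows of 206 bases, 40.3% of 310, 43.3% of 348 and 43.5% of 350. These matches describe the sequence only; binding was not measured.

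**Figure D2:**
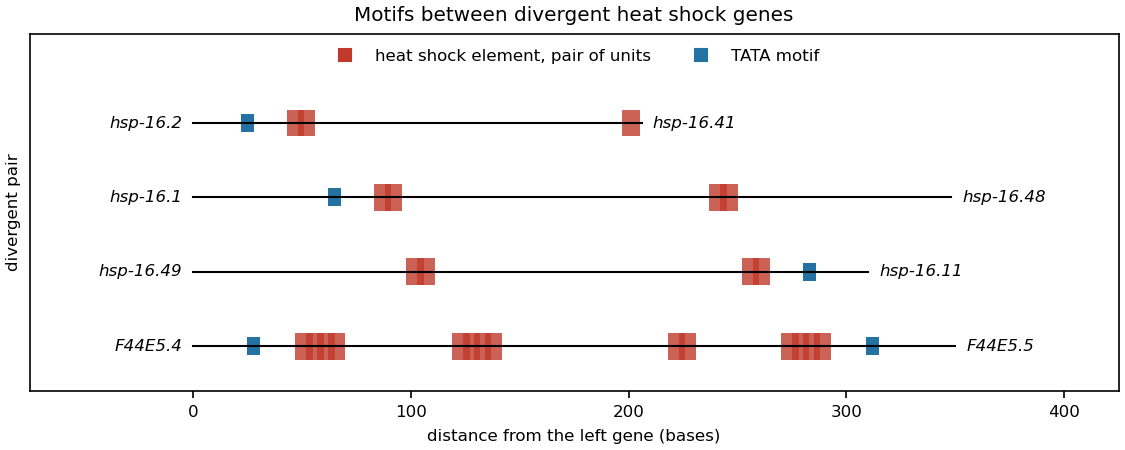
Heat shock elements, drawn as pairs of units (red, 8 bases each), and TATAAA motifs (blue) between the 4 divergent gene pairs, by distance in bases from the left gene. The *F44E5* stretch carries 14 pairs of units, against 3 in the *hsp-16.2* stretch.

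The libraries held 24089119 to 36206855 counts in the polyA table and 6099620 to 9881132 in the Ribo-Zero table. Ribosomal RNA genes took 0.508% to 0.69% of the counts in 5 polyA libraries and 7.93% in *rpb-9* replicate 3, and 34.2% to 48.4% in the Ribo-Zero table. The targeted genes were checked first. *prg-1* RNA was 160 to 175 CPM (counts relative to the scaled library total) in wild type and 53.8 to 59.7 CPM in *prg-1* (log2 fold change −1.53, adjusted p = 0.0038, edgeR quasi-likelihood test, but 0.0355 to 0.05095 when wild-type replicate 1, 2 or 3 or *prg-1* replicate 1 or 2 was left out). For *rpb-9*, whose allele is a stop codon so that RNA is a weak check of the label, the level was 37.3, 44.7 and 47.8 CPM in wild type and 41.6, 26.3 and 24.9 CPM in the mutant (log2 fold change −0.48, adjusted p = 0.078, same test). The piRNA sensor was higher in both mutants, with log2 fold changes of 5.805 in *rpb-9* (adjusted p = 6.78e-07, edgeR) and 2.56 in *prg-1* (adjusted p = 0.0086, and 0.0361 to 0.0921 without any of the same 5 libraries).

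Together the 9 genes made up 0.0355% to 0.0634% of the counts in the polyA libraries and 0.0134% to 0.0388% in the Ribo-Zero libraries. Per kilobase of exon, the wild-type polyA level was 79.7 ± 6.46 CPM for *hsp-16.1* (SD, n = 3 here and below), 70.8 ± 6.94 for *hsp-16.48*, 67.3 ± 12.9 for *F44E5.5*, 24.1 ± 2.43 for *hsp-16.41*, 22.8 ± 2.72 for *hsp-16.2* and 11.3 ± 3.4 for *hsp-70*. The first 3 levels in this order lay within their spread of each other, as did *hsp-16.41* and *hsp-16.2*. With 257 to 1056 counts per gene in the wild-type polyA libraries, the *hsp-16* genes were not at the floor here. In wild-type Ribo-Zero libraries these 3 genes were at 35.2 ± 13.9 CPM per kilobase (*F44E5.5*), 31.3 ± 9.3 (*hsp-16.48*) and 23.4 ± 8.2 (*hsp-16.1*). They again lay within their spread of each other, so neither table resolves their order. *hsp-16.41* (8.39 ± 2.08), *hsp-16.2* (6.93 ± 1.44) and *hsp-70* (4.66 ± 0.795) were lowest in these libraries too. The levels of a copy count only its share of the pair, and reads across exon junctions were not aligned.

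Whether loss of RPB-9 function goes with heat shock gene expression was addressed in the polyA libraries. No member was called by edgeR (quasi-likelihood test over 14275 genes) or by DESeq2. A call needed an adjusted p under 0.01 and a log2 fold change of more than 1 in size. An unadjusted p under 0.05 in edgeR was found for 5 of the 9 members and for 8310 of the 14275 genes. Of all genes tested, 13.8% were called higher and 1.49% lower. All 6 *hsp-16* genes nevertheless lay higher in every *rpb-9* library than in every wild-type library, which also held for 33.6% of all genes. Among them, *hsp-16.1* and *hsp-16.11* are not separate measurements, nor are *hsp-16.48* and *hsp-16.49*. The *hsp-16.48* and *hsp-16.49* pair was the highest of the members in fold, and the *F44E5* pair lay at the level of wild type. The median log2 fold change of the 9 genes, which counts both copies of each pair, was 0.57, against 0.14 over all genes tested. Scaled by library size alone, the median of all genes was 0.40 and that of the members 0.79, so that their distance from all genes was 0.43 and 0.40.

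The *hsp-16.1* gene, which shares nearly all reads with *hsp-16.11*, was at 32.2, 37.9 and 34.6 CPM in wild-type replicates 1 to 3 and at 63.6, 42.6 and 48.7 CPM in *rpb-9* replicates 1 to 3. The genotypes did not overlap, and *rpb-9* replicate 1 was highest. Its log2 fold change was 0.57 (SE 0.157, adjusted p = 0.017, edgeR quasi-likelihood test). The pair *hsp-16.48* and *hsp-16.49* was at 27.8, 30.2 and 33.7 CPM per gene in wild type and at 58.9, 42.9 and 47.5 CPM in *rpb-9*. These libraries did not overlap either, and *rpb-9* replicate 1 again stood above the other two. The log2 fold change was 0.70 (SE 0.143, 95% interval 0.37 to 1.03) with an adjusted p of 0.0049 in the edgeR test, short of the fold threshold. With each copy pair counted as 1 gene, the log2 fold changes stayed at 0.57 and 0.70 (adjusted p = 0.014 and 0.0035, edgeR).

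The more distant *hsp-16.2* gene, whose promoter drives commonly used stress reporters, was at 11.6, 14.4 and 14.4 CPM in wild type and at 20.7, 16.8 and 18.3 CPM in *rpb-9*. Its *rpb-9* libraries lay above wild type with a log2 fold change of 0.46 (SE 0.148, adjusted p = 0.031, edgeR). Its divergent partner *hsp-16.41* was at 12.5, 14.6 and 15.2 CPM in wild type and at 15.9, 16.8 and 17.2 CPM in *rpb-9*. The libraries were separated by a narrow gap, and *rpb-9* replicate 1, the highest for the other *hsp-16* genes, was the lowest of the mutants here. The log2 fold change of *hsp-16.41* was 0.24 (95% interval −0.065 to 0.54, adjusted p = 0.16, edgeR). Within each library, the level per length of *hsp-16.48* over that of *hsp-16.41* was 3.01, 2.80 and 3.01 in wild type and 5.01, 3.46 and 3.74 in *rpb-9*. This ratio was among 7 chosen with the values in view and was not tested. In the Ribo-Zero libraries it overlapped, at 3.165, 4.062 and 3.958 in wild type and 5.469, 3.347 and 3.226 in *prg-1*. For the divergent partners, *hsp-16.2* over *hsp-16.41* was 0.92, 0.97 and 0.94 in wild type and 1.28, 0.99 and 1.05 in *rpb-9*. That ratio overlapped in the Ribo-Zero libraries too.

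Among the HSP70 genes, *hsp-70* (I:9320361-9322511, minus strand), the classical heat-inducible member, was at 15.7, 29.4 and 23 CPM in wild type and at 18.5, 41.5 and 41.1 CPM in *rpb-9*. The genotypes overlapped, since *rpb-9* replicate 1 lay between wild-type replicates 1 and 3. The log2 fold change was 0.57 with an interval of −0.18 to 1.31 (adjusted p = 0.17, edgeR), and it was 0.36 without wild-type replicate 1 (adjusted p = 0.405, edgeR) and 0.393 and 0.416 without *rpb-9* replicates 2 and 3. *F44E5.4* was at 113.5, 166.7 and 135.3 CPM in wild type and at 107.5, 150.8 and 153.8 CPM in *rpb-9*. *F44E5.5*, its near-copy, was at 114, 167 and 136 CPM and at 108, 151 and 155 CPM, so that both genotypes covered the same range. Their log2 fold changes were −0.012 and −0.01 (0.23 for both when scaled by library size alone), each with an interval within −0.41 to 0.39 (adjusted p = 0.96 and 0.97, edgeR). *rpb-9* replicate 1 thus had the highest *hsp-16.1* and *hsp-16.48* levels but the lowest *hsp-70* and *F44E5* levels of the mutant libraries. Without it, the log2 fold change was 0.39 for *hsp-16.1*, 0.56 for *hsp-16.48* and 0.86 for *hsp-70* (adjusted p = 0.0059, 0.00088 and 0.0034, edgeR), still with no call.

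**Figure D3:**
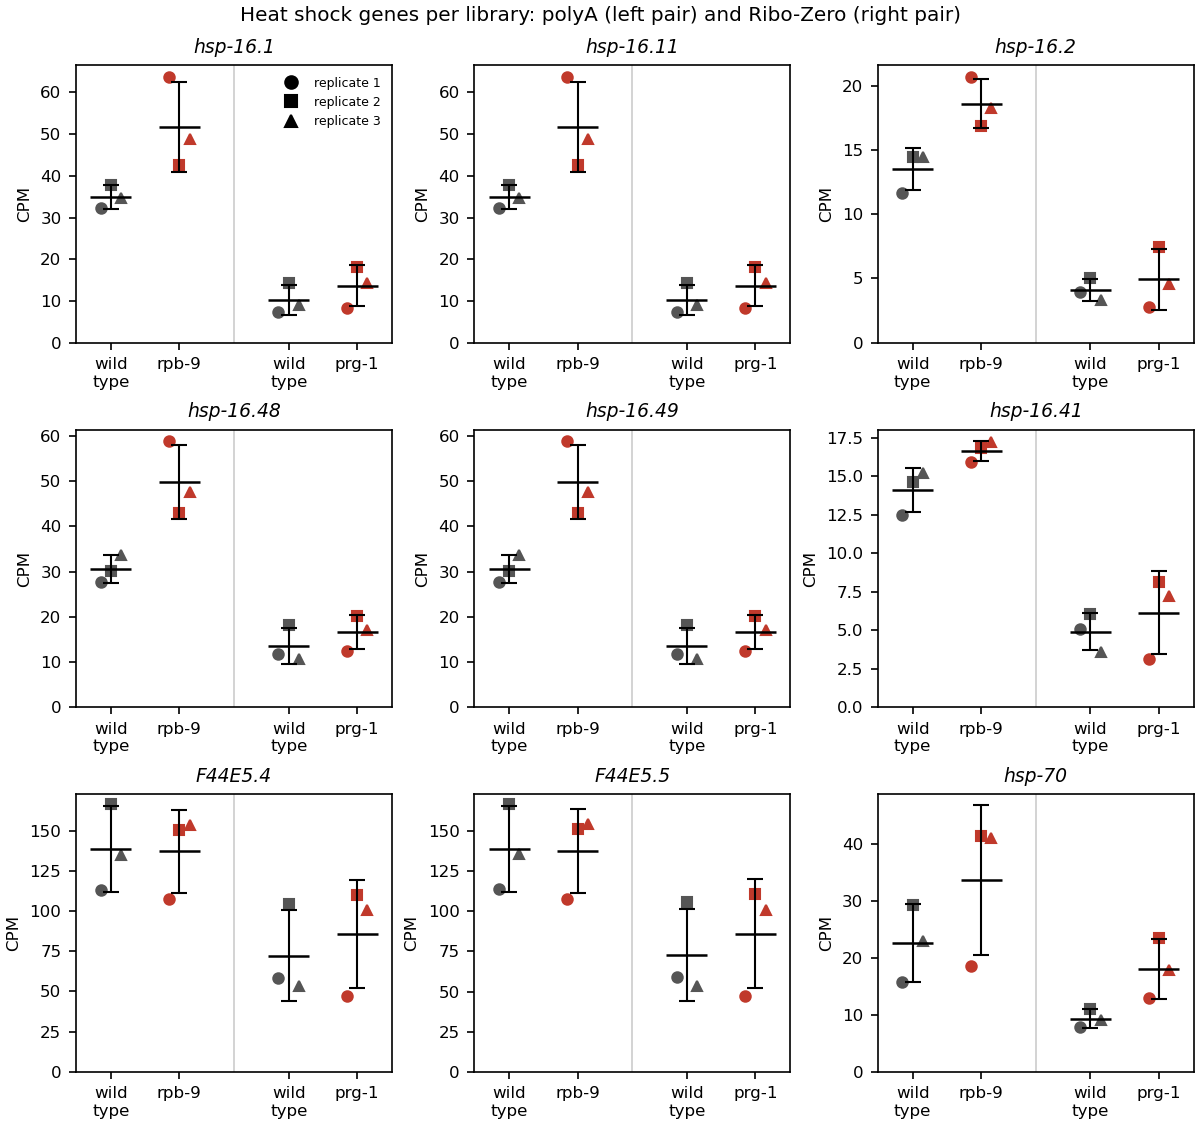
CPM of the 9 genes in every library, polyA on the left of each panel and Ribo-Zero on the right, with wild type in grey and the mutant in red. Symbols mark replicates, and bars give the mean ± SD of 3 libraries. In the polyA libraries all *rpb-9* points of the *hsp-16* genes lie above wild type, while those of *hsp-70* and the *F44E5* genes overlap it.

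At an adjusted p under 0.05 with no fold threshold, 5 of the 9 members were higher in *rpb-9* and none lower. Of all 14275 genes, 29.5% were higher and 3034 genes lower, so that 7251 passed in either direction. The 5 members were *hsp-16.1*, *hsp-16.11*, *hsp-16.2*, *hsp-16.48* and *hsp-16.49*, which are 3 separate measurements. Without wild-type replicate 1 or without wild-type replicate 3, 2 members passed (*hsp-16.48* and *hsp-16.49*). The share of all genes passing is not given for these variants. *hsp-16.2* did not pass with DESeq2, with RLE size factors or with the replicate block. With that block *hsp-70* passed (log2 fold change 0.53, SE 0.158, adjusted p = 0.031, edgeR), though the replicate numbers of the polyA libraries were not taken as pairs. Markers of other tissues moved in the same libraries, in which 13.8% of all genes tested were called higher and 1.49% lower. The summed CPM of 15 oocyte and eggshell markers was 19500 to 20420 in wild type and 9788 to 12220 in *rpb-9*, with none called, and that of 15 germline markers was 5720 to 5910 and 3271 to 4120, also with none called. The sum of 15 body wall muscle markers was 2002 to 2333 CPM in wild type and 2716 to 3888 CPM in *rpb-9* (3 called higher), and that of 15 intestine markers was 74110 to 86230 and 33500 to 63470 CPM (1 called higher). The intestine sum was mostly that of 3 vitellogenins, at mean sums of 76810 CPM in wild type and 46490 in *rpb-9*, while the other 12 genes summed to 2586 and 4354 CPM and 10 of them had positive values. Of 13 sperm markers tested, 10 were called higher and 1 lower, at sums of 9.19 to 11.6 and 28.5 to 33.5 CPM, and 3 of 9 pharynx markers were called higher. Neuron markers had 1 of 14 called higher and hypodermis markers 2 of 15 called lower, and no marker list had a gene at 0 in all libraries. Their part in the heat shock gene values was not tested, and in bulk RNA fewer cells of a type and less RNA per cell cannot be told apart.

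The same question was asked of *prg-1* in Ribo-Zero libraries. Only *hsp-70* was separated by genotype, 1.93-fold higher in *prg-1*, and the *hsp-16* and *F44E5* genes overlapped when libraries were not paired. No member was called over 11794 genes tested, where 0.102% of all genes were called higher and 0.017% lower by edgeR. DESeq2 called 180 genes higher and 155 lower, and edgeR called 396 and 191 without *prg-1* replicate 3 and 0 without any other single library. At an adjusted p under 0.05 with no fold threshold, 0 of the 9 passed, against 0.899% of all genes higher. At an unadjusted p under 0.05, 1 of the 9 did (*hsp-70*), against 2225 of the 11794 genes, and DESeq2 called 0 members. The median log2 fold change of the 9 genes, again with both copies counted, was 0.29, from 0.24 to 0.94, against 0.022 over all genes.

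*hsp-70* was at 7.87, 11.1 and 9.19 CPM in wild type and at 12.9, 23.5 and 17.9 CPM in *prg-1*. The genotypes did not overlap, which held for 12.7% of all genes tested in the same direction. The log2 fold change was 0.94 (SE 0.25, interval 0.36 to 1.53), with an adjusted p of 0.12 by edgeR. With the replicate number as a block, the value was 0.93 with an adjusted p of 0.029, which is no call either. Within each library, the level per length of *hsp-70* over that of *F44E5.4* was 0.14, 0.11 and 0.18 in wild type and 0.286, 0.223 and 0.185 in *prg-1*, another of the 7 ratios not tested. Of these 7, 5 overlapped between genotypes in the polyA table, *hsp-70* over *F44E5.4* among them, and 5 overlapped in the Ribo-Zero table.

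*hsp-16.1* was at 7.36, 14.3 and 9.12 CPM in wild type and at 8.42, 18.2 and 14.4 CPM in *prg-1*. *hsp-16.48* was at 11.9, 18.1 and 10.6 CPM in wild type and at 12.5, 20.1 and 17.1 CPM in *prg-1*. In both genes replicate 2 was the highest of each genotype. *hsp-16.2* was at 3.94, 5.03 and 3.34 CPM and at 2.75, 7.44 and 4.59 CPM, from as few as 23 counts in a library. *hsp-16.41* was at 5.08, 6.03 and 3.62 CPM and at 3.11, 8.13 and 7.19 CPM. *prg-1* replicate 1 was the lowest of all 6 libraries for these last 2 genes. The log2 fold changes of the *hsp-16* genes were 0.26 to 0.40, with intervals from −0.64 to 1.22 and adjusted p-values of 0.53 to 0.71 (edgeR). For all but *hsp-16.48* and *hsp-16.49* these intervals included values past the fold threshold. With 1 library left out, the log2 fold changes ran from 0.138 to 0.722 for *hsp-16.1*, 0.059 to 0.634 for *hsp-16.41* and 0.123 to 0.56 for *hsp-16.48*. Between libraries of the same number, *hsp-16.1* and *hsp-16.48* were higher in *prg-1* in 3 of 3 pairs, and *hsp-16.2* and *hsp-16.41* in 2 of 3. With the replicate number as a block, *hsp-16.1* had a log2 fold change of 0.395 (adjusted p = 0.18, edgeR).

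*F44E5.4* was at 58.4, 105 and 53.3 CPM in wild type and at 47, 110 and 101 CPM in *prg-1*. *F44E5.5* followed it at 58.9, 106 and 53.6 CPM and at 47.4, 111 and 101 CPM. Wild-type replicate 2 lay near *prg-1* replicates 2 and 3, and the other 3 libraries lay well below them. The log2 fold changes were 0.25 and 0.24 (adjusted p = 0.71 and 0.72, edgeR), smaller than the range within wild type. Some marker sums also ranged widely in these libraries. Sperm markers were at 25.4 to 56.9 CPM in wild type and 13.8 to 147 CPM in *prg-1*, and muscle markers at 3225 to 5359 and 3335 to 9072 CPM. Others were narrower, with neuron markers at 131.4 to 152.8 and 145.1 to 192.6 CPM. The germline sum, at 1854 to 2070 CPM in wild type and 1646 to 1758 CPM in *prg-1*, was the only one of the 8 without overlap. No marker of the 8 lists was called, against 0.102% of all genes called higher and 0.017% lower. Their part in the values was not tested.

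**Figure D4:**
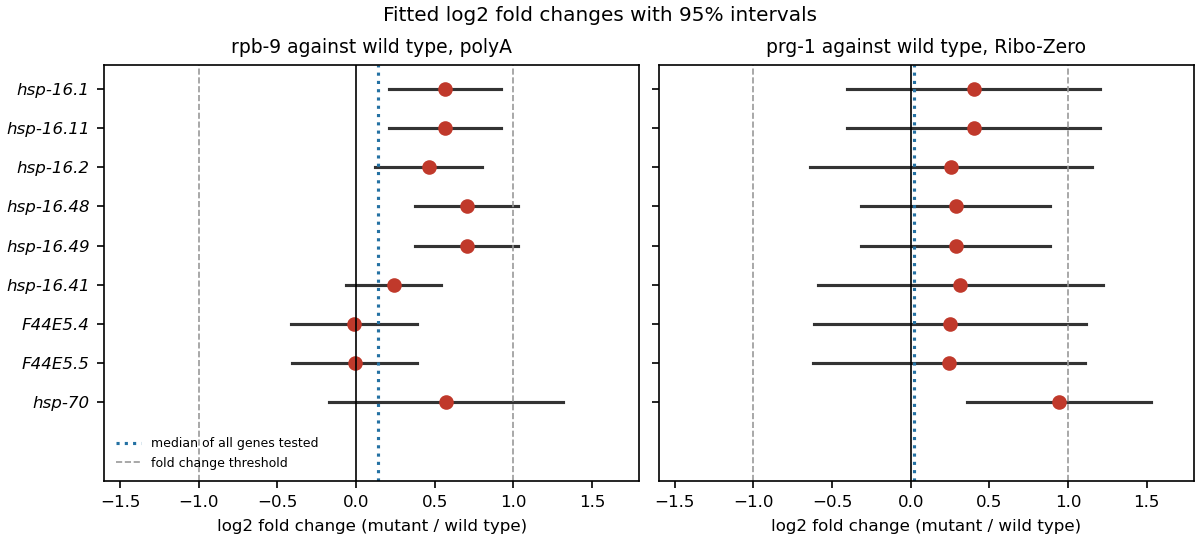
Fitted log2 fold changes of the 9 genes (points) with 95% intervals (lines), *rpb-9* in polyA libraries on the left and *prg-1* in Ribo-Zero libraries on the right. Dashed lines mark the fold change threshold and the dotted line the median of all genes tested. No point passes a threshold, and the interval of *hsp-70* in *prg-1* runs from 0.36 to 1.53.

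**Figure D5:**
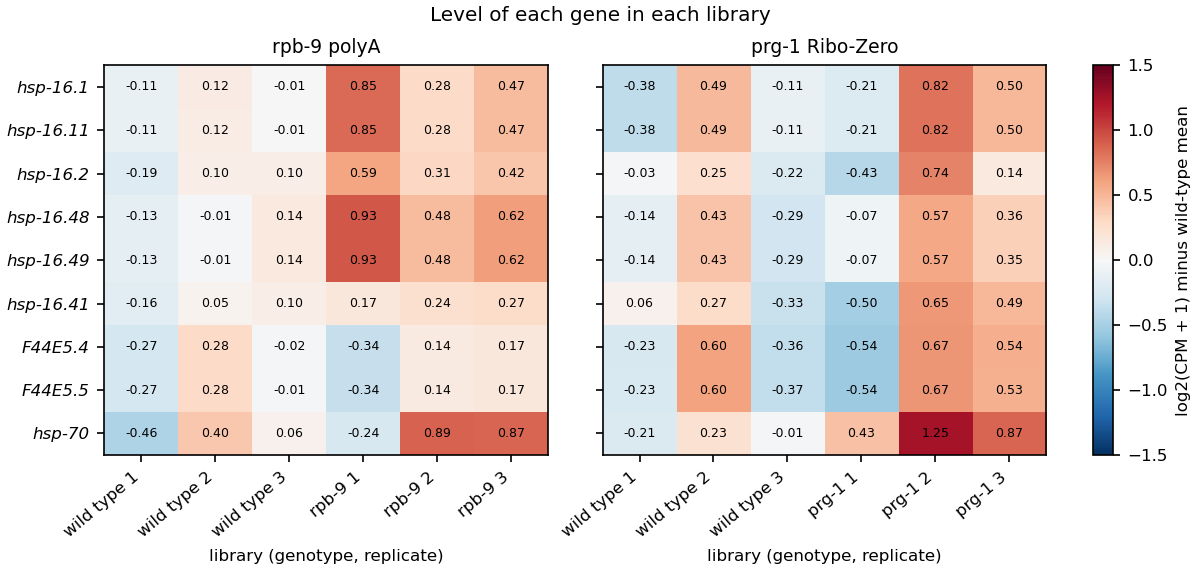
Log2(CPM + 1) of each gene in each library, minus the wild-type mean of its table. *rpb-9* replicate 1 reads 0.85 for *hsp-16.1* but −0.34 for *F44E5.4*, and replicate 2 is the highest wild-type library for all 9 genes in the Ribo-Zero table.

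The regulators of the response mostly had negative values in *rpb-9*. Of 11 genes for HSF-1 and its regulators, 0 were called in either comparison by edgeR. Of all genes tested in *rpb-9*, 13.8% were called higher and 1.49% lower. The median log2 fold change of the 11 in *rpb-9* was −0.44, against 0.14 over all genes. Scaled by library size alone it was −0.18, against 0.40 over all genes. That scaling gave −0.61 for *daf-16*, −0.59 for *hsp-90*, −0.39 for *hsp-1* and −0.37 for *hsf-1*. It gave −0.065 for *sir-2.1*, −0.026 for *hsb-1* and 1.256 for *pha-4*. *hsf-1*, the heat shock transcription factor, was at 123 ± 5.31 CPM in wild type and 79.9 ± 10 in *rpb-9* (log2 fold change −0.62, adjusted p = 0.0024, edgeR). *hsp-90*, the HSP90 chaperone also called *daf-21*, was at 5553 ± 188 and 3066 ± 66.1 CPM (−0.86), and the constitutive HSP70 *hsp-1* had a log2 fold change of −0.65. The HSF-1 binding proteins *hsb-1*, *ddl-1* and *ddl-2* were at −0.30, −0.44 and −0.52. The transcription factors *daf-16* and *skn-1* were at −0.85 and −0.32, the deacetylase *sir-2.1* at −0.32 and the histone variant *htz-1* at −0.44. Only *pha-4*, a FoxA factor, had a positive value (1.01, adjusted p = 0.018, edgeR), from 3.33 CPM in wild type, and was called without *rpb-9* replicate 1 (1.19, adjusted p = 0.0018, edgeR). In *prg-1* the 11 values lay between −0.31 (*hsf-1*) and 0.037 (*daf-16*), none with an adjusted p under 0.05 by edgeR.

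Other chaperone and stress genes were compared in the same fits. Of all genes tested in *rpb-9*, 13.8% were called higher and 1.49% lower. Of 11 other small heat shock genes tested in *rpb-9*, 2 were called higher and 0 lower, with a median log2 fold change of 0.69: *hsp-17* (20.9 ± 3.76 to 44.3 ± 6.68 CPM, log2 fold change 1.09, 0.997 and no call with DESeq2 or RLE size factors, and 0.986 without wild-type replicate 3) and *F08H9.3* (0.0675 ± 0.0283 to 0.575 ± 0.163 CPM, 3.04). Of 29 constitutive cytosolic chaperones 0 were called and 5 had positive values, and the most negative values were those of *hsp-90* and of *cdc-48.1*, an unfolding ATPase (−0.81). None of 20 genes of the endoplasmic reticulum unfolded protein response was called, and the kinase *pek-1* (0.63) and the factor *atf-6* (0.45) had the largest values. None of 12 mitochondrial genes was called either, with *hsp-60*, a mitochondrial chaperonin, at −0.86 and the transporter *haf-1* at −0.67. Of 32 other stress reporters, 16 were called higher and 0 lower, led by *cyp-35B1* (3.46) and *irg-2* (3.12). In *prg-1*, 0 genes were called in these 5 lists, against 0.102% of all genes called higher and 0.017% lower. The 2 values of largest size within each list there were 1.08 for *hsp-12.2*, 0.85 for *hsp-17*, −0.39 for *dnj-12*, −0.31 for *cct-1*, −0.51 for *atf-6*, −0.32 for *dnj-27*, 0.62 for *hsp-6*, 0.44 for *lonp-1*, 1.82 for *dod-3* and 1.49 for *gpdh-1*.

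Over the 12 libraries, the genes most like the mean of the 9 members in log2(CPM + 1), centred on the wild-type mean of each table, were *pho-6* (Pearson r = 0.88), *T25D10.1* (0.88), *ptrg-1* (0.87), *C15F1.5* (0.87) and *H39E23.3* (0.86), of 11345 genes tested in both tables. These values are a description over libraries that share tables and genotypes. In *rpb-9*, only *H39E23.3* of the 5 was called (log2 fold change 3.57), against 13.8% of all genes called higher. None was called in *prg-1*.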

How the data were processed

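PolyA-selected RNA (wild type and *rpb-9*) and Ribo-Zero RNA (wild type and *prg-1*) were analysed from 3 libraries per genotype. The authors deposited expected counts per gene, without normalization. They used STAR on ce11 plus the sensor sequence, end to end with up to 2 mismatches and no introns, and featureCounts, in which a read with several loci was divided among them. Reads were 50 bases, single end. No strand option is named, and the polyA kit is not stated to be directional. The deposited exon lengths served for levels per kilobase. The column names give strains: the one common to several tables was read as wild type and the other as the mutant of its table. The labels list 2 sequencing lanes for each Ribo-Zero replicate, and the deposited columns were read as merged lanes. Another 24 per-library columns carry names that no source links to a genotype, so *rpb-9* Ribo-Zero libraries are not analysed here.

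Counts were rounded and fitted with edgeR 4.0.16 in R 4.3.3, using TMM scaling, a quasi-likelihood test with genotype alone and Benjamini-Hochberg adjustment. A gene was tested if 3 or more libraries had 10 or more counts, and called if the adjusted p was below 0.01 and the log2 fold change exceeded 1 in size. SE is the size of the log2 change over the root of the F statistic, and intervals are 95%. CPM uses TMM-scaled library totals. Alternatives were DESeq2 1.42.0, other scalings and filters, summed copies, a replicate block and leaving out each library. The fitting code was also run on simulated counts with a single setting of spread for all genes, so it was not tested at the spread of these genes. Windows were aligned with bwa 0.7.19-r1273, and sequences were read from the RefSeq genome of WBcel235. Symbols matched 46484 of 46740 identifiers (Ensembl 115, and RefSeq for the *hsp-16* copies).

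In the *prg-1* table, deviations from the genotype mean correlated at 0.153, 0.355 and 0.433 between libraries of the same number in the column names. Between unlike numbers they ran from −0.488 to 0.322, with wild-type replicate 1 and *prg-1* replicate 2 at 0.322. The numbers were taken as pairs for the block and the pair counts, but these correlations do not establish a pairing. The members, the lists and the rule for named genes (all members and regulators, the called or largest genes of the other lists, and the 5 most alike) were chosen with earlier results of these data known.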

Additional observations from a re-analysis of the deposited data

How the results depend on the processing

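No member was called in either comparison with DESeq2, RLE size factors, library size alone, ribosomal RNA genes left out, no filter on low counts, unrounded counts, summed copies, the replicate block or any library left out. With an adjusted p under 0.05 and no fold threshold, 5 of the 9 members passed in *rpb-9* and 0 in *prg-1*. Over all genes, 7251 of 14275 passed in *rpb-9* and 137 of 11794 in *prg-1*, in either direction. In *rpb-9* the number of members passing was 2 without wild-type replicate 1 or 3, and 4 to 6 without another library. It was 4 with DESeq2 or RLE size factors and 7 with library size alone. In *prg-1* it was 1 with the replicate block, without the filter or without *prg-1* replicate 3. The *hsp-16* counts above every wild-type library stayed at 6 under the 3 other scalings. In the Ribo-Zero table *hsp-16.2* and *hsp-16.41* had 23 to 70 counts per library and SEs of 0.383 and 0.388, and *F44E5.4*, with 383 to 1042.5 counts, had an SE of 0.369. The causes of the following shifts were not tested.

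In *rpb-9*, values near 0 changed sign: *F44E5.4* read 0.23 with library size alone, 0.012 without the filter and −0.135 to 0.166 with a library left out, and *F44E5.5* read 0.232, 0.014 and −0.133 to 0.167. In *prg-1*, library size alone gave 0.058 for *ddl-1*, 0.11 for *htz-1* and 0.047 for *hsp-1*, and no filter gave −0.053 for *hsb-1*, −0.038 for *daf-16* and −0.057 for *skn-1*. With a library left out, the *prg-1* values ran from −0.169 to 0.545 for *hsp-16.2*, −0.134 to 0.198 for *hsb-1*, −0.335 to 0.041 for *ddl-1*, −0.553 to 0.04 for *pha-4*, −0.1 to 0.212 for *skn-1*, −0.306 to 0.086 for *htz-1*, −0.204 to 0.068 for *hsp-1* and −0.081 to 1.03 for *pho-6*. None of these values was called. In *rpb-9*, calls were gained by *pha-4* with library size alone (1.256) and without the filter (1.037), by *T25D10.1* with library size alone (1.166) and without wild-type replicate 2 (1.068), and by *ptrg-1* with library size alone (1.09). In *prg-1*, *gpdh-1* was called without the filter (1.4), and *prg-1* itself lost its call with library size alone (−1.394).

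Over all genes, library size alone called 3090 higher and 124 lower in *rpb-9*, against 1966 and 213. In *prg-1*, where 12 were called higher and 2 lower, DESeq2 called 180 and 155, no filter 367 and 357, library size alone 18 and 4, and the replicate block 19 and 2. Without *prg-1* replicate 3 there were 396 and 191, and without any other single library 0. Leaving out wild-type replicate 2 or 3 called 1304 or 1197 higher in *rpb-9*. Same-numbered polyA libraries correlated at 0.057, 0.108 and −0.137 in their deviations, so the numbers were not taken as pairs, and the block there called 1742 higher and 199 lower. Summing copies and adding the block together, chosen after seeing the data, called no member. The fit of *rpb-9* Ribo-Zero libraries and its variants were not run.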
